A study of Mus musculus with 16 samples.

Results

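Genomic imprinting was followed through 40 mouse genes known for expression mainly from 1 parental allele, other than *Grb10*, *H19* and *Igf2*. Some of them, such as *Ube3a* and *Ddc*, are known for this in certain tissues only. All 40 are listed by name, as known imprinted loci, and the list was drawn up with earlier results of these data known. Of the 40 genes, 39 are listed in a count matrix of 29453 genes, and *Rian*, a long non-coding RNA of the *Dlk1*-*Dio3* domain, was not analysed here. Among the 39 genes, 23 are known for expression from the paternal allele and 16 for expression from the maternal allele. The sequencing did not separate the alleles, so every value below is the sum of both.

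An imprinted gene carries a mark, in most cases DNA methylation, that was set in the egg or the sperm and is kept through the divisions of the early embryo while the rest of the genome is largely demethylated. The mark lies at an imprinting control region, and 1 control region often governs several neighbouring genes, some read from the maternal and others from the paternal chromosome. Zinc finger proteins such as ZFP57 bind methylated control regions and recruit the proteins that keep them methylated. Many imprinted genes act on growth, on the placenta and on the fate of mesoderm and neural cells.

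Chimeric CD1 mouse embryos were made by injecting *Stat3* null embryonic stem cells (ESCs) that carried a tdTomato reporter into blastocysts with intact *Stat3*, and cells were taken on embryonic days 7.5 (E7.5), 8.5 (E8.5) and 9.5 (E9.5). Cells were sorted by flow cytometry into tdTomato-positive cells, called *Stat3* null below, and tdTomato-negative host cells, called WT, and RNA of single cells was counted by unique molecular identifiers (UMIs). Each genotype had 2 libraries at E7.5, 2 at E8.5 and 4 at E9.5, named A to D within a group, where a letter is a name only and pairs nothing. By the study's account, embryos were pooled at E7.5 and E8.5 and processed singly at E9.5. The null cells came from ESCs derived in 2i medium from morulae of a cross of *Stat3* heterozygous CD1 mice, and were transfected with a histone H2B-tdTomato plasmid, whereas the host cells were not transfected, and their blastocysts were kept in medium only briefly after the injection. Genotype and ESC origin therefore cannot be told apart in any comparison below. The tdTomato-negative cells include the extra-embryonic tissues of the host, to which injected ESCs contribute few cells.

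In all, 37841 cells of 87 cell types, as labelled by the authors, were analysed, 17387 null and 20454 WT. A library held 360 to 4327 cells and 20682659 to 138613245 UMIs, so that a limit of 3 counts lay between 0.0216 and 0.145 counts per 10⁶ UMIs (CPM). *Stat3* itself lay between 1.16 and 2.53 CPM in null and between 6.14 and 9.31 CPM in WT libraries, lower in every null library. *Grb10*, a maternally expressed imprinted gene of most tissues, lay between 4.88 and 22.4 CPM in 7 null libraries and between 193 and 373 CPM in the WT libraries. E8.5 null B stood apart from the other null libraries, with *Grb10* at 262 CPM and a tdTomato UMI in 72.3% of its singlets, against 89.8% to 98.3% in the others. The E8.5 log2 fold changes of *Zdbf2*, *Slc38a4*, *Impact*, *Nnat*, *Mcts2*, *H13*, *Dlk1*, *Meg3*, *Mirg*, *Zrsr1*, *Commd1*, *Phlda2*, *Slc22a18* and *Cdkn1c* are given with and without null B. E8.5 null A stood apart in *H19*, with 246 CPM against 14.3 to 113 CPM in the other null and 427 to 733 CPM in the WT libraries, so that neither E8.5 null library was like the rest in both genes. E9.5 WT C and WT D shared 292 cell barcodes, 15.3% of WT C, while no other pair shared more than 8. Leaving out these barcodes, a choice made after seeing the data, gave 27 in place of 29 calls by cell type at E9.5 and the same counts of calls in whole libraries.

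Most of the differences between null and WT cells described below were in *Zdbf2*, while *Nnat*, *Mcts2* and a few others differed between the null libraries of a stage. The promoters of these 3 genes, and of *Slc38a4*, the gene with the next most calls, are shown here as the windows in which a motif of imprint control was looked for, 250 bases before to 50 after a start site, from the RefSeq annotation of GRCm38.p6. Capitals mark the hexamer TGCCGC, the core of the motif that ZFP57 binds when methylated, or its reverse complement GCGGCA. The upstream start site of *Zdbf2* lies 72.9 kb before the start of the gene in the other annotation used here. Its window, chr1:63200108-63200407 (plus strand), held 3 copies of the hexamer and 15 CpG dinucleotides, and that of the main start site, chr1:63273019-63273318, held 0 copies and 38 CpG. The windows of *Nnat* at chr2:157559828-157560127 and of *Mcts2* at chr2:152686898-152687197, both on the plus strand, held 1 copy each, with 17 and 25 CpG. *Slc38a4* has 3 windows, each with 0 copies and 5 CpG, of which that of the first start site, chr15:97055907-97056206 (minus strand), is shown.
Zdbf2, upstream start site: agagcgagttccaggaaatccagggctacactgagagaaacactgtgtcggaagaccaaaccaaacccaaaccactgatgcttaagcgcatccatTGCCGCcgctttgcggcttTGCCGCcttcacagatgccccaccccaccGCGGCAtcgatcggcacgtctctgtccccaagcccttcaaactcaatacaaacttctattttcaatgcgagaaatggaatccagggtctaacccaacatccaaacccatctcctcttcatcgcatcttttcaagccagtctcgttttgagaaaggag
Zdbf2, main start site: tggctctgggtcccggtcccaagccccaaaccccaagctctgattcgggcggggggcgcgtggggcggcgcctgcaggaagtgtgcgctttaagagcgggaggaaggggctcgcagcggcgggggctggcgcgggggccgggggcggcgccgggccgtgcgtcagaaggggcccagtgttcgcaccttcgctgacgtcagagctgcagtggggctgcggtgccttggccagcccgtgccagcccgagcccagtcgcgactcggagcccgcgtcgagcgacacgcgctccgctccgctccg
Nnat: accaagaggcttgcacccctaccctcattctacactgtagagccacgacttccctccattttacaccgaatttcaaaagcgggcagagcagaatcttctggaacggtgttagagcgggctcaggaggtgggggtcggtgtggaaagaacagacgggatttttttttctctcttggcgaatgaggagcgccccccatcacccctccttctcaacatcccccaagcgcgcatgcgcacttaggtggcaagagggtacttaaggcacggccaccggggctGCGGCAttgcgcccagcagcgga
Mcts2: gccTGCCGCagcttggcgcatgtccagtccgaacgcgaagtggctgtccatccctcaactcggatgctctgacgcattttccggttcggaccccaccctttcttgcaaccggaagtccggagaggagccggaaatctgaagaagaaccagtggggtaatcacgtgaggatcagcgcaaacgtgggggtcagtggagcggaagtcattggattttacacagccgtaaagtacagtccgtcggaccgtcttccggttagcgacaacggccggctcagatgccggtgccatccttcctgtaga
Slc38a4: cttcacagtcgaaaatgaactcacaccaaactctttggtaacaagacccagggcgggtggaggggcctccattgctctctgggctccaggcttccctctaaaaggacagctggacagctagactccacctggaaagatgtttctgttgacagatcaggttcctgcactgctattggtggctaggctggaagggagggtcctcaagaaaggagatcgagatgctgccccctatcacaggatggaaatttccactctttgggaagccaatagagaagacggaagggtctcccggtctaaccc

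RefSeq promoter entries were matched for 34 of the 40 genes, not for *Impact*, *Cdkn1c*, *Peg10*, *Sgce*, *Nap1l4* and *Rtl1*. Of their 49 entries, 11 (22.4%), from 10 genes, held the hexamer on either strand. Of all 32851 entries of the same length, 3813 (11.6%) held it, and the median entry had 7 CpG, with quartiles of 3 and 20. The hexamer itself holds a CpG, and these shares were not matched for CpG content. The *Mest* entries at chr6:30737800-30738099 and chr6:30737803-30738102 overlap almost wholly, and both are counted. The 10 genes with the hexamer were *Zdbf2*, *Nnat*, *Plagl1*, *Mcts2*, *Meg3*, *Mest*, *Snrpn*, *Zim1*, *Commd1* and *Copg2*. Windows with 0 copies included those of *Slc38a4*, *H13*, *Dlk1*, *Ddc*, *Mirg* and *Zrsr1*. A match of letters is a description of the window and says nothing of binding or methylation in these cells.

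The genes were compared between null and WT cells of the same cell type, on counts summed per library and cell type, in 7 types at E7.5, 20 at E8.5 and 37 at E9.5. A gene was called in a cell type at an adjusted p under 0.05 and an absolute log2 fold change over 1 (edgeR's quasi-likelihood test, Benjamini-Hochberg adjustment over the genes of the type). At E7.5, 37 of the 39 genes could be tested in at least 1 type, and 3 of 213 tests were called, all higher in null cells (1.41%, against 0.186% of the tests of all genes and 0.0799% called higher). At E8.5, 8 of 615 tests of 37 genes were called, again all higher (1.30%, against 0.0609% of all tests and 0.0290% called higher). At E9.5, 29 of 1136 tests of 36 genes were called, 27 higher and 2 lower (2.55%, against 0.120% of all tests, 0.0558% higher and 0.0641% lower). The calls came from 5 genes, *Zdbf2* (27 calls), *Slc38a4* (7), *Nnat* (3), *Impact* (2) and *Ddc* (1). Without the fold change limit, 6, 15 and 77 tests passed the adjusted p at the 3 stages (0.247%, 0.0929% and 0.271% of all tests). The median absolute log2 fold change of the imprinted genes was 0.18, 0.24 and 0.15, and that of all genes 0.14, 0.16 and 0.12.

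The count at E8.5 rested on single libraries. Without null A it was 43, 20 higher and 23 lower, of which 13 were *Dlk1*, lower in null B, and 11 were *Mcts2*, higher in null B, where the spread of the lone null library is assumed to be that of the WT libraries. Without null B the count was 15, 13 higher and 2 lower, of which 9 were *Zdbf2*, and without WT A it was 5. At E7.5 the count was 9 without null A or without WT A, and the calls were then no longer all higher. Without null A 5 were higher (*Impact* 3, *Slc38a4* 2) and 4 lower (*Nnat* 2, *Peg3* 1, *Phlda2* 1), with no call of *Zdbf2*. Without WT A 7 were higher (*Slc38a4* 5, *Impact* 1, *Zdbf2* 1) and 2 lower (*Dlk1* 1, *Mest* 1).

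**Figure D1:**
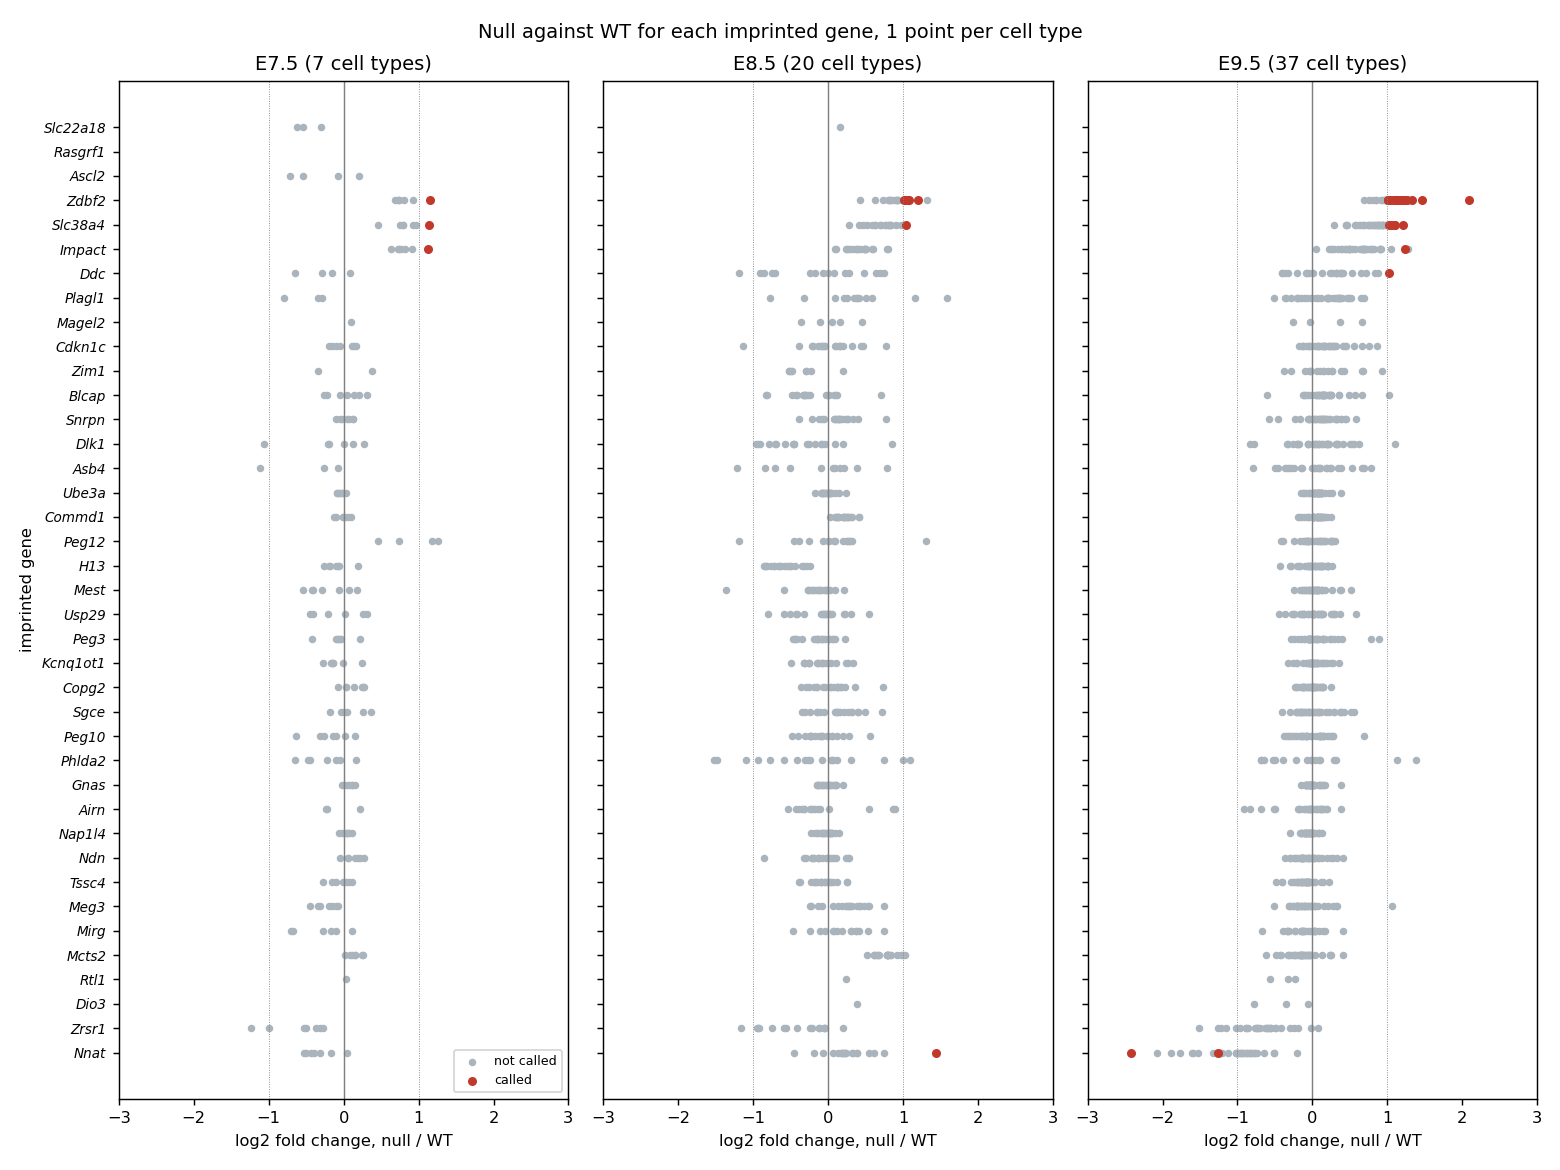
Log2 fold change of null over WT (horizontal axis) for each imprinted gene (vertical axis) in 3 panels by stage, with 1 point per cell type tested, called tests in red and dotted lines at the fold limit. *Zdbf2*, *Slc38a4* and *Impact* lay above 0 in every cell type in which they were tested, and most other genes lay on both sides of 0.

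*Zdbf2* encodes a zinc finger protein of the embryo and the brain, is read from the paternal allele in the embryo and lies at chr1:63273265-63314576 (GRCm38, plus strand). At E7.5 it reached 115 and 101 CPM in the null libraries and 44.2 and 56.5 CPM in the WT libraries. At E8.5 the levels were 97.8 and 83.5 CPM in null and 45.2 and 47.2 CPM in WT libraries. At E9.5 they were 149, 148, 131 and 147 CPM in null and 67.1, 71.8, 67.0 and 69.3 CPM in WT libraries. Every null library lay above every WT library of its stage, as was so for 14.2%, 19.2% and 3.34% of all genes at the 3 stages. In whole libraries, summed over all cells, the log2 fold change was 1.14 at E7.5 (SE 0.12, edgeR adjusted p = 7.85e-05), 0.95 at E8.5 (SE 0.12, adjusted p = 0.00181), which did not pass the fold limit, and 1.06 at E9.5 (SE 0.08, adjusted p = 9.41e-06). At E8.5 it passed the limit without the null-sorted cells that lacked a tdTomato UMI (1.01) and without null B (1.07). At E7.5 it fell short of the limit without WT A (0.96) and with erythroid and extra-embryonic cell types left out (0.87), with an adjusted p of 0.000913 and 0.00182. In bulk sums of this kind, fewer cells of a type and less RNA per cell cannot be told apart.

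Within cell types *Zdbf2* was called higher in 1 of 7 types at E7.5, in 6 of 20 at E8.5 and in 20 of 37 at E9.5, and it passed the adjusted p in 3, 8 and 32 of them. Of all genes tested in at least 5 types, 0.0416% at E8.5 and 0.177% at E9.5 were called in at least 5. Its log2 fold change lay above 0 in every type tested, which 7.97%, 1.25% and 0.911% of the genes tested in at least 5 types showed, and had a median of 0.74, 0.92 and 1.03. At E7.5 it ranged from 0.69 in Ectoderm to 1.15 in Blood progenitors, where null libraries held 52.5 and 50.6 CPM and WT libraries 22.3 and 25.3 CPM (SE 0.19, edgeR adjusted p = 0.00242).

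At E8.5 the log2 fold change of *Zdbf2* ranged from 0.43 in Erythroid cells, where it was scarce (3.82 and 4.97 CPM in null, 2.01 and 4.34 CPM in WT libraries) and the groups overlapped, to 1.32 in Amniotic ectoderm. In Ventral hindbrain progenitors null libraries held 192 and 193 CPM and WT libraries 80.5 and 89.5 CPM (log2 fold change 1.20, SE 0.12, edgeR adjusted p = 0.000124). At E9.5 it ranged from 0.68 in Amniotic ectoderm to 2.08 in erythro-myeloid progenitors (EMP), where the 2 null libraries held 35.9 and 20.1 CPM and WT libraries 4.56, 5.52, 8.14 and 9.38 CPM (SE 0.33, edgeR adjusted p = 0.0322). In Sclerotome, the forerunner of the vertebrae, null libraries held 142, 144, 118 and 112 CPM and WT libraries 56.8, 58.3, 56.0 and 59.7 CPM (log2 fold change 1.18, SE 0.08, edgeR adjusted p = 4.42e-08). In Limb mesoderm the log2 fold change was 1.10 (SE 0.07, edgeR adjusted p = 2.32e-07), and in Dorsal midbrain neurons it was 1.00 (SE 0.07, edgeR adjusted p = 1.22e-06), just short of the fold limit. Every null library lay above every WT library in 7 of 7 types at E7.5 and in 20 of 20 at E9.5, and each null library did so in 19 of 20 at E8.5, among the types with more than 15 cells in every library.

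The share of cells with a *Zdbf2* UMI was compared at an equal depth, with every cell thinned at random to 10000 UMIs. In Sclerotome cells at E9.5 it lay between 61.5% and 72.4% in null and between 40.4% and 46.1% in WT libraries. Before thinning the shares lay between 92.0% and 96.9% and between 70.0% and 82.7%, at median depths of 25870 to 51698.5 UMIs per cell. In Erythroid cells of WT libraries, where the gene was scarce, 2.96% to 7.89% of thinned cells held a UMI at median depths of 20780 to 31061 UMIs. The mean number of UMIs in thinned Sclerotome cells with at least 1 was also higher in null (1.80 to 2.03) than in WT libraries (1.33 to 1.44), without overlap.

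*Slc38a4*, which encodes an amino acid transporter and is read from the paternal allele, lies at chr15:96994820-97055956 (minus strand). At E7.5 it reached 78.3 and 94.5 CPM in null and 63.5 and 37.2 CPM in WT libraries. At E8.5 the levels were 61.7 and 86.1 CPM in null and 34.9 and 44.3 CPM in WT libraries, and at E9.5 they were 52.0, 60.6, 58.6 and 68.7 CPM in null and 29.8, 29.4, 31.7 and 35.1 CPM in WT libraries. The groups did not overlap at any stage, with every null library above every WT library, as was so for 14.2%, 19.2% and 3.34% of all genes. In whole libraries the log2 fold change was 0.84 at E7.5 (SE 0.22, edgeR adjusted p = 0.0493), 0.87 at E8.5 (SE 0.22, edgeR adjusted p = 0.243; 0.63 without null B) and 0.93 at E9.5 (SE 0.16, edgeR adjusted p = 0.0104), so that none passed both limits. At E7.5 the WT libraries differed from each other, WT A lying above WT B in 7 of 7 cell types, and the log2 fold change was 1.24 without WT A and 0.51 without WT B. Which library held large or small embryos is not known here, and the part of embryo size was not tested.

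Within cell types *Slc38a4* lay above 0 in all 7, 19 and 36 types in which it was tested. It passed the adjusted p in 2, 4 and 21 of them and was called in 1, 1 and 5. The call at E7.5 was in Intermediate mesoderm, with 122 and 145 CPM in null and 62.3 and 59.8 CPM in WT libraries (log2 fold change 1.14, SE 0.15, edgeR adjusted p = 0.000359), and that at E8.5 in mesothelium of the yolk sac (1.05, SE 0.18, edgeR adjusted p = 0.0248). At E9.5 it was called in Allantois, Dermomyotome, Dorsal spinal cord progenitors, Midbrain/Hindbrain boundary and Pharyngeal mesoderm. In Dorsal spinal cord progenitors it was scarce and the groups overlapped, with 6.91 to 16.3 CPM in null and 4.92 to 7.78 CPM in WT libraries. The log2 fold changes at E9.5 ran from 0.28 in EMP to 1.21 at the Midbrain/Hindbrain boundary, where null libraries held 20.2, 25.5, 27.3 and 22.1 CPM and the 3 WT libraries tested held 8.13, 8.98 and 13.5 CPM (SE 0.25, edgeR adjusted p = 0.0378). In Dorsal midbrain neurons, where it was scarce, null libraries held 6.23 to 11.1 CPM and WT libraries 4.26 to 10.5 CPM, and the groups overlapped.

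*Impact*, read from the paternal allele, encodes an inhibitor of GCN2, the kinase that senses lack of amino acids. At E7.5 it reached 40.2 and 53.4 CPM in null and 25.0 and 23.1 CPM in WT libraries. At E8.5 the levels were 47.6 and 34.3 CPM in null and 32.4 and 30.9 CPM in WT libraries, and at E9.5 they were 48.3, 59.2, 56.7 and 58.7 CPM in null and 32.4, 37.3, 37.0 and 37.8 CPM in WT libraries. The groups did not overlap at any stage, but at E8.5 null B lay close to the WT libraries. Of all genes, 14.2%, 19.2% and 3.34% had every null library above every WT library at the 3 stages. The log2 fold change in whole libraries was 1.00 at E7.5 (SE 0.17, edgeR adjusted p = 0.00345), just past the fold limit, 0.36 at E8.5 (SE 0.16, edgeR adjusted p = 0.942; 0.58 without null B) and 0.62 at E9.5 (SE 0.12, edgeR adjusted p = 0.0153). At E7.5 it was 0.77 without null B and 0.85 with erythroid and extra-embryonic types left out, where the adjusted p was 0.128. It fell short of the fold limit without WT B as well.

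Within cell types *Impact* lay above 0 in all 7, 20 and 37 types. It was called in Paraxial mesoderm at E7.5, with 41.5 and 46.3 CPM in null and 22.7 and 18.5 CPM in WT libraries (log2 fold change 1.13, SE 0.21, edgeR adjusted p = 0.0383), and in Spinal cord progenitors at E9.5, with 45.0, 72.3 and 47.3 CPM in null and 20.8, 21.0 and 24.6 CPM in WT libraries (1.24, SE 0.23, edgeR adjusted p = 0.0185). It passed the adjusted p in 1, 0 and 14 types. The E8.5 null libraries differed from each other. Null A lay above both WT libraries in 20 of 20 types, whereas null B lay above both in 6 and below both in 6, with a level averaged over types of 39.7 CPM against 39.4 CPM in WT libraries.

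**Figure D2:**
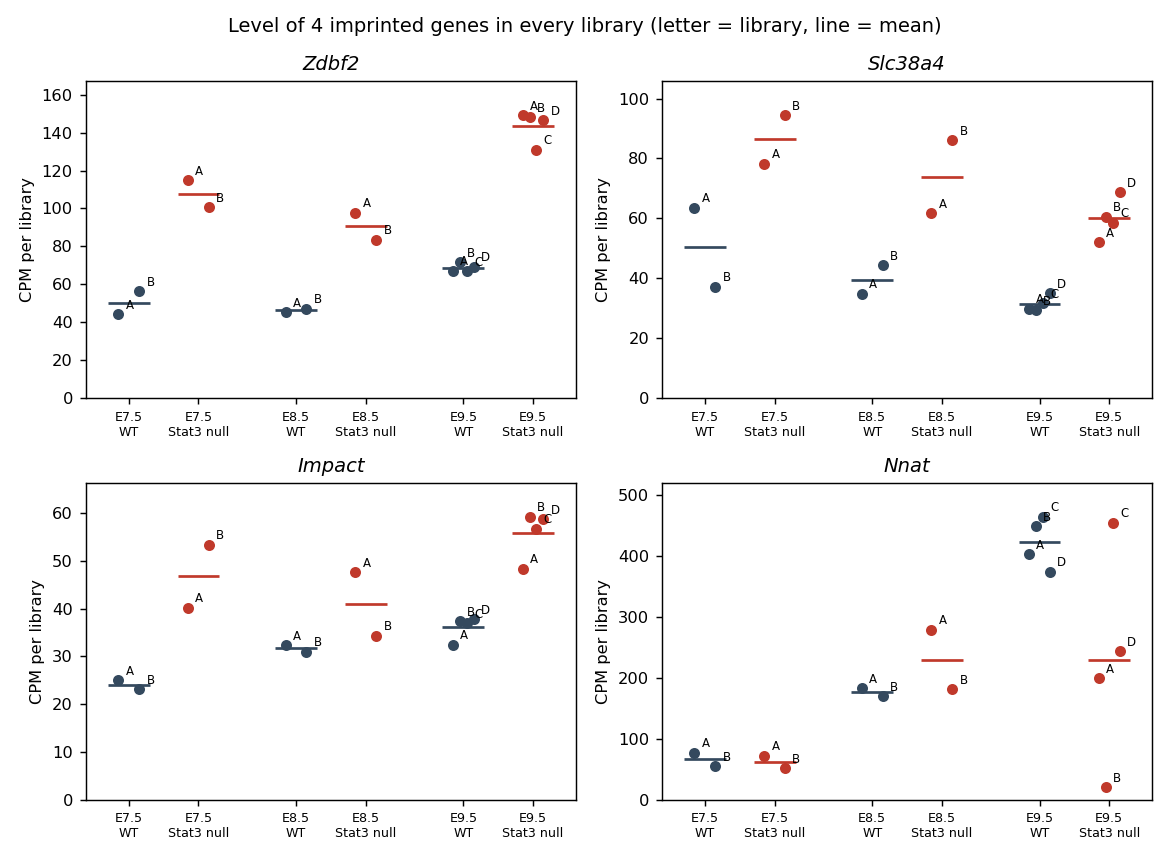
Level in CPM (vertical axis) of *Zdbf2*, *Slc38a4*, *Impact* and *Nnat* in every library (points with the library's letter) by stage and genotype (horizontal axis), with the mean of each group as a line. All null libraries lay above every WT library of their stage for the first 3 genes, whereas the null libraries of E9.5 were spread from 20.5 to 455 CPM for *Nnat*.

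*Ascl2*, a maternally expressed transcription factor gene that is needed for the placenta, was the only gene of the set called lower in whole libraries. At E7.5 it reached 4.11 and 4.74 CPM in null and 24.4 and 8.60 CPM in WT libraries (log2 fold change -1.84, SE 0.40, edgeR adjusted p = 0.0153). With erythroid and extra-embryonic cell types left out the log2 fold change was -0.14, and with levels averaged over cell types it was -0.03 (limma-trend). The log2 fold change was -0.94 without WT A and -2.40 without WT B. *Ascl2* was no longer called without null A, without null B or without WT A. Null libraries held 2 and 0 cells labelled extra-embryonic (ExE) ectoderm, and WT libraries 114 and 167. The list of 10 ExE ectoderm markers summed to 471 to 484 CPM in null and 787 to 1206 CPM in WT libraries, and 6 of the 10 were called lower, the defining markers *Elf5* and *Tfap2c* among them, while none was at 0 in all null libraries. The 10 yolk sac endoderm markers summed to 20.8 to 22.8 CPM in null and 567 to 674 CPM in WT libraries, with 6 called lower and none at 0. *Ascl2* was tested in 4 embryonic types at E7.5, where its log2 fold change lay between -0.71 and 0.21, and was called in none (edgeR, 0 of 4 past the adjusted p and 1 at an unadjusted p under 0.05, DESeq2 0). In Ectoderm it reached 3.45 and 8.36 CPM in null and 3.02 and 5.35 CPM in WT libraries.

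In whole libraries 3 of the 39 genes were thus called at E7.5, *Zdbf2*, *Impact* and *Ascl2*, against 2.62% of all genes, 0 at E8.5 (0.103% of all genes) and 1, *Zdbf2*, at E9.5 (0.745%). At E8.5, 5 genes had an unadjusted p under 0.05 in edgeR, and DESeq2 called 0. Without the fold limit 6, 1 and 3 genes passed the adjusted p (5.34%, 0.212% and 1.35% of all genes). *Ddc* and *Peg10* passed it at E7.5 only, lower in null libraries, with log2 fold changes of -0.49 and -0.58. With erythroid and extra-embryonic cell types left out these were -0.02 and -0.23 (edgeR adjusted p = 0.998 and 0.792), and neither gene passed the adjusted p in a cell type at E7.5 (edgeR), with medians over types of -0.22 and -0.15. Most of the set lay close to 0, with 32, 32 and 31 of the 39 genes within 0.5 of 0 on the log2 scale (79.8%, 88.2% and 91.8% of all genes). The median log2 fold change was 0.03, 0.05 and 0.02 in the paternally and -0.01, 0.06 and 0.00 in the maternally expressed genes.

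*Nnat*, *Mcts2*, *H13*, *Dlk1*, *Meg3*, *Mirg*, *Zrsr1* and *Ddc* are described next, and were chosen after their values were seen. *Nnat* encodes neuronatin, a small proteolipid of the endoplasmic reticulum, is read from the paternal allele, and lies at chr2:157560078-157562522 inside an intron of *Blcap*, which is read from the other strand. At E9.5 it reached 200, 20.5, 455 and 244 CPM in null A to D and 403, 449, 465 and 374 CPM in WT libraries. Null C lay among the WT libraries, null A and D lay below all of them, and null B lay lowest. The log2 fold change was -0.89 (SE 0.59, edgeR adjusted p = 0.803), and it was -0.51 without null B and -1.47 without null C. The overlapping *Blcap* reached 29.5, 31.7, 23.1 and 28.3 CPM in null and 25.2, 25.4, 27.2 and 23.0 CPM in WT libraries, and its groups overlapped.

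The null libraries differed in *Nnat* across cell types as well. Averaged over the 20 types with more than 15 cells in every E9.5 library, null B stood 19.4-fold below the mean of the WT libraries, null A 2.16-fold below and null D 1.79-fold below, while null C stood at 1.04 times the WT mean. Null A, B and D lay below all WT libraries in 19, 20 and 17 of these types, and null C in 4. The log2 fold change lay below 0 in 37 of 37 types tested (0.837% of the genes tested in at least 5 types), but *Nnat* was called in only 2 of them, types in which not every null library had enough cells. These were Amniotic ectoderm, with 88.4 and 66.8 CPM in null and 431 and 390 CPM in WT libraries (log2 fold change -2.42, SE 0.17, edgeR adjusted p = 1.44e-09), and Presomitic mesoderm, with 121 CPM in null A, 92.1 CPM in null D and 254 and 250 CPM in WT libraries (-1.26, SE 0.15, edgeR adjusted p = 0.00199). In the latter null A lay above null D, the opposite of their order in the average.

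Counted cell by cell, the libraries differed in the share of cells with a *Nnat* UMI. In Sclerotome thinned to 10000 UMIs per cell, 63.8% (exact binomial 95% interval 56.7% to 70.5%) of 199 cells of null A held one, 2.49% (0.919% to 5.34%) of 241 cells of null B, 98.4% (94.5% to 99.8%) of 128 cells of null C and 66.2% (57.3% to 74.2%) of 130 cells of null D. In the WT libraries the share lay between 97.8% and 98.9%. These intervals cover counting error only. Before thinning the shares were 80.9%, 12.4%, 100% and 86.9% in null A to D and 100% in each WT library. Among thinned cells with a UMI the mean count was 8.31 in null A, 8.70 in null C and 5.43 in null D, against 6.72 to 9.65 in WT libraries, so that null A and C lay within the WT range and null D below it. In Limb mesoderm the shares were 48.5%, 5.10%, 88.4% and 52.4% in null A to D and between 79.3% and 92.1% in WT libraries. Erythroid cells of WT libraries, where the level was low, held a UMI in 31.6% to 46.3% of thinned cells, a range that the share in null B cells lay below.

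**Figure D3:**
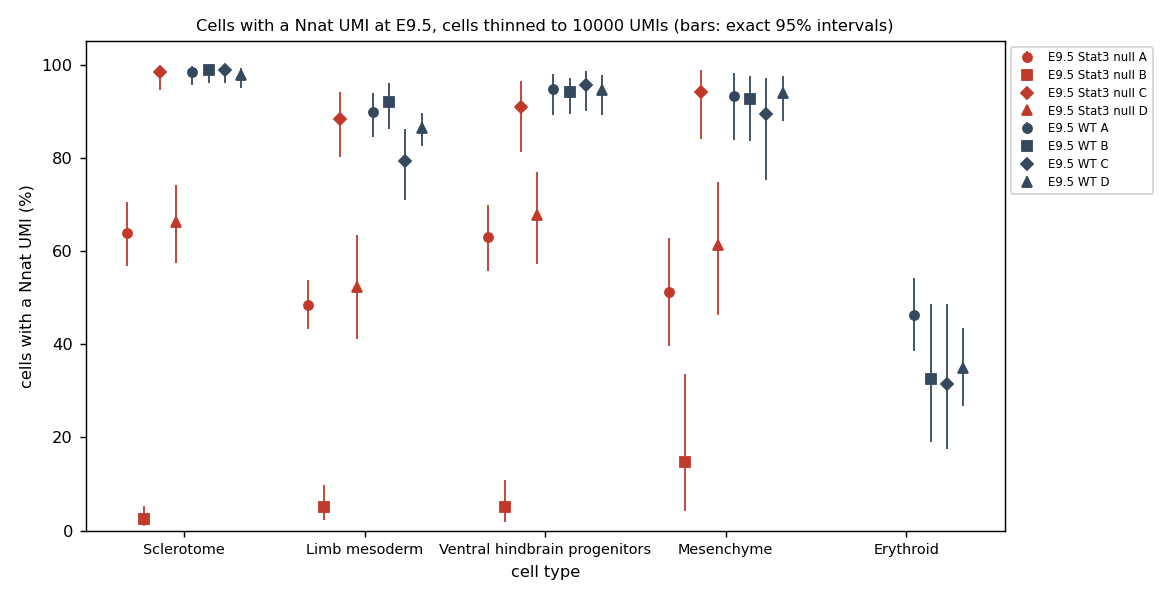
Share of cells with at least 1 *Nnat* UMI at E9.5 after thinning to 10000 UMIs per cell (vertical axis, percent, bars as exact binomial 95% intervals), by cell type (horizontal axis) and library (null in red, WT in dark blue). In the first 4 types null C lay near the WT libraries, null A and D lower and null B lowest, and Erythroid cells are shown for WT libraries as a low-level type.

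At E8.5 *Nnat* reached 279 and 182 CPM in null and 183 and 170 CPM in WT libraries (log2 fold change 0.37, SE 0.84, edgeR adjusted p = 1.00; 0.65 without null B). It was called higher in null cells of the Thyroid primordium, with 821 and 736 CPM in null and 232 and 348 CPM in WT libraries (log2 fold change 1.44, SE 0.19, edgeR adjusted p = 0.00658), and passed the adjusted p in Cranial mesoderm (0.62) and Optic vesicle (0.74) as well. The Thyroid primordium held few cells, 74 and 18 in null and 16 and 24 in WT libraries. It was also the type of the highest E8.5 log2 fold change for *Cdkn1c*, *Peg3*, *Dlk1*, *Snrpn*, *Sgce*, *Airn*, *Gnas* and *Ube3a*, none of them called. In *Nnat* null A lay above both WT libraries in 16 of 20 types, and null B above both in 6 and below both in 12. The change of the genotype effect from E8.5 to E9.5 in whole libraries was -1.26 (SE 1.03, edgeR adjusted p = 1.00).

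*Mcts2*, a paternally expressed retrogene related to a translation factor, lies at chr2:152687035-152687946 inside an intron of *H13*, on the same strand. *H13* encodes signal peptide peptidase, is known for use of different polyadenylation sites on the 2 alleles and is listed here as maternally expressed. Reads of *Mcts2* and of long *H13* transcripts may be shared, which makes both values uncertain. At E8.5 *Mcts2* reached 70.6 and 103 CPM in null and 47.9 and 55.2 CPM in WT libraries, while *H13* reached 35.1 and 23.5 CPM in null and 45.1 and 45.8 CPM in WT libraries. Neither pair of groups overlapped, and the genes lay on opposite sides of the WT libraries, null B farther from them than null A in both. Every null library lay above every WT library in 19.2% of all genes at E8.5, and the share for the lower direction was not counted.

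The log2 fold change at E8.5 was 0.73 for *Mcts2* (SE 0.22, edgeR adjusted p = 0.480) and -0.64 for *H13* (SE 0.16, edgeR adjusted p = 0.194, DESeq2 adjusted p = 0.0117). Without null B it was 0.45 for *Mcts2* and -0.38 for *H13*. Null A and null B each lay above both WT libraries in *Mcts2* in 20 of 20 types. In *H13* null A lay below both in 19 and null B in 20 of 20 types. No type passed the adjusted p for *H13* at E8.5 in edgeR or DESeq2, with 14 of 20 at an unadjusted p under 0.05 (edgeR). At E9.5 the picture was held by 1 library, null D, with *Mcts2* at 29.0 CPM against 45.2 to 50.8 CPM in the other null and 44.8 to 51.0 CPM in WT libraries, and *H13* at 69.5 CPM against 52.0 to 55.6 CPM and 55.2 to 57.0 CPM. Null D lay below all WT libraries in *Mcts2* in 19 of 20 types and above all in *H13* in 17 of 20. At E7.5 *Mcts2* reached 49.2 and 52.5 CPM in null and 40.1 and 46.6 CPM in WT libraries.

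The *Dlk1*-*Dio3* domain of chromosome 12 holds *Dlk1*, a paternally expressed membrane ligand of the Delta family, with *Dio3*, a deiodinase that inactivates thyroid hormone, and *Rtl1*, a gene of retrotransposon origin needed for the placenta. The long non-coding RNAs *Meg3* and *Mirg* are read from the maternal allele. At E8.5 *Dlk1* reached 121 CPM in null A, 21.4 CPM in null B and 121 and 94.9 CPM in WT libraries, whereas *Meg3* reached 304 CPM in null A, 566 CPM in null B and 309 and 319 CPM in WT libraries. *Mirg* followed *Meg3*, with 9.38 and 22.8 CPM in null and 9.43 and 11.0 CPM in WT libraries. Null B was thus low in the paternally expressed ligand gene and high in both maternally expressed RNAs, and null A was near the WT libraries in all 3.

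Averaged over cell types *Dlk1* in null B stood 4.99-fold below the WT mean and lay below both WT libraries in 19 of 20 types, while *Meg3* lay above both in 18 and *Mirg* in 17. In thinned Mesenchyme cells, where *Dlk1* was abundant, 71.1% (exact binomial 95% interval 54.1% to 84.6%) of the 38 cells of null B held a *Dlk1* UMI, against 96.5% of null A and 100% and 96.9% of WT cells, at median depths of 18241 to 29366.5 UMIs. Before thinning the shares were 81.6%, 99.1%, 100% and 98.8%. The interval covers counting error in 1 library only. In Erythroid cells at E8.5, where *Dlk1* was scarce, 1.53% of thinned cells of null B, 3.70% of null A and 6.57% and 7.40% of WT cells held a UMI, at median depths of 25352.5 to 42665 UMIs. In Mesenchyme, thinned null B cells with a *Dlk1* UMI held a mean of 3.93, against 7.63 to 10.4 in the other libraries. Over both null libraries the log2 fold change in whole libraries was -0.60 for *Dlk1* (SE 0.60, edgeR adjusted p = 1.00) and 0.44 for *Meg3* (SE 0.21, edgeR adjusted p = 0.963), and without null B it was 0.15 and -0.05. For *Mirg* it was 0.60 (SE 0.30, edgeR adjusted p = 0.997), and -0.13 without null B. *Grb10* and the share of tdTomato-positive cells, given above, also set null B apart, and their part in these values was not tested. With the null-sorted cells that lacked a tdTomato UMI left out, the number of imprinted genes called at E8.5 in whole libraries was 1, *Zdbf2*.

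**Figure D4:**
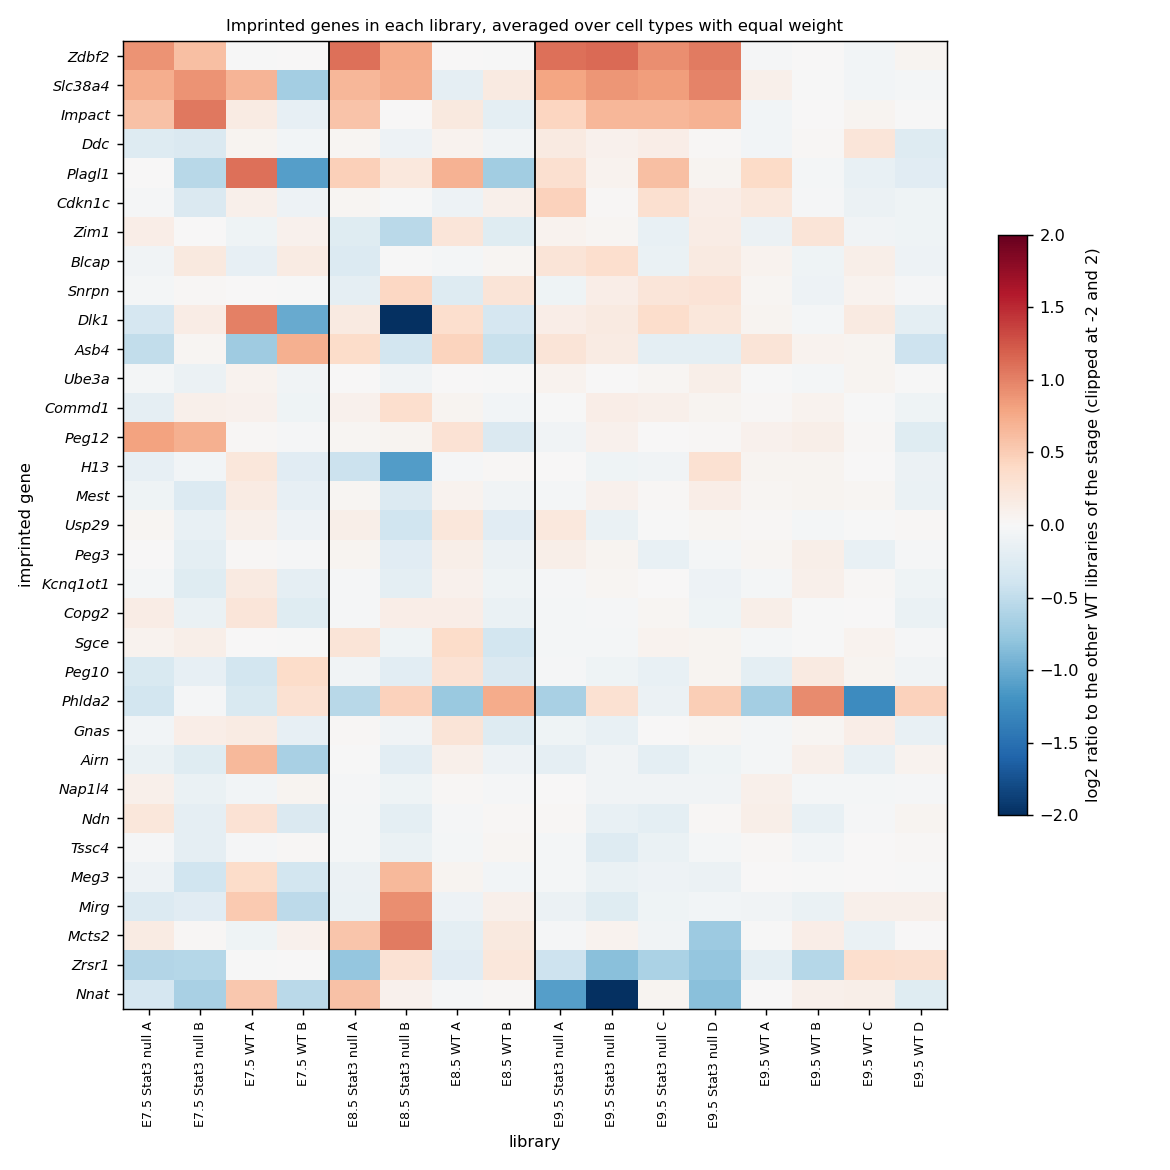
Log2 ratio of each library (horizontal axis) to the mean of the WT libraries of its stage, itself left out (colour, limited to -2 to 2), for the imprinted genes of at least 10 CPM (vertical axis), with levels averaged over cell types. *Zdbf2* and *Slc38a4* were above 0 in all null libraries, *Dlk1* was lowest in E8.5 null B (4.99-fold below WT) and *Nnat* in E9.5 null B (19.4-fold below WT).

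*Zrsr1*, a paternally expressed retrogene related to a splicing factor, lies in an intron of *Commd1*, whose product acts in endosomal sorting and which is read from the other strand. *Zrsr1* was scarce, with 5.27 and 5.37 CPM in null and 7.10 and 7.46 CPM in WT libraries at E7.5. At E8.5 it reached 5.27 and 10.5 CPM in null and 8.51 and 9.20 CPM in WT libraries, and at E9.5 9.34, 7.56, 8.43 and 7.79 CPM in null and 11.7, 8.85, 14.3 and 14.5 CPM in WT libraries. The groups were apart at E7.5 only, and the share of all genes with every null library below every WT library was not counted. Its log2 fold change lay below 0 in 7 of 7, 15 of 16 and 28 of 29 types, and it passed the adjusted p at E9.5 in Limb mesoderm (-0.86, SE 0.15, edgeR adjusted p = 0.0113) and Sclerotome (-0.89, SE 0.17, edgeR adjusted p = 0.00961) without passing the fold limit. *Commd1* lay above 0 in 20 of 20 types at E8.5, with a median of 0.22, and passed the adjusted p in none (edgeR, 0 of 20, with 4 at an unadjusted p under 0.05, and DESeq2 0). Of the genes tested in at least 5 types, 1.25% lay above 0 in every type at E8.5. In whole libraries at E8.5 the log2 fold change was -0.22 for *Zrsr1* and 0.17 for *Commd1*, and without null B it was -0.76 and 0.06.

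*Ddc*, which encodes the decarboxylase that makes dopamine and serotonin and has a paternally expressed transcript in the heart, was called higher in Mesenchyme at E9.5. Null libraries held 38.6, 29.0, 38.7 and 34.0 CPM and WT libraries 21.3, 18.2, 18.4 and 13.8 CPM, without overlap (log2 fold change 1.02, SE 0.17, edgeR adjusted p = 0.00457). This lay just past the fold limit, and there was no call without null A, without null C or without WT D. Across the other 24 types at E9.5 its log2 fold change lay on both sides of 0, above it in 16 and below it in 8, with a median of 0.29.

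The other domains gave few values past the test. In the *Kcnq1* domain the non-coding RNA *Kcnq1ot1*, which silences its neighbours on the paternal allele, had a log2 fold change in whole libraries of 0.01, 0.02 and 0.02 at the 3 stages, and passed the adjusted p in Hindbrain neural progenitors at E9.5 alone (-0.32). The maternally expressed genes of that domain other than *Ascl2*, which is described above, namely *Cdkn1c*, a brake on the cell cycle, *Phlda2*, which limits placental growth, *Slc22a18*, *Nap1l4* and *Tssc4*, lay between -0.39 and 0.57. Without E8.5 null B the E8.5 value turned from 0.41 to -0.94 for *Phlda2*, from 0.57 to -0.25 for *Slc22a18* and from 0.25 to -0.05 for *Cdkn1c*. Reads of *Kcnq1ot1* and *Airn* overlap *Kcnq1* and *Igf2r* on the other strand. In the *Peg3* domain *Peg3*, which encodes a zinc finger protein, lay at 0.06, 0.03 and -0.00, *Usp29* at 0.16, -0.05 and 0.04 and *Zim1* at -0.09, -0.08 and 0.02, and only *Peg3* in Placodal ectoderm at E9.5 (0.89) passed the adjusted p.

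In the *Snrpn* domain *Snrpn*, a gene of the spliceosome, *Ndn* and *Magel2*, of the MAGE family, *Peg12* and the ubiquitin ligase gene *Ube3a* passed the adjusted p in no cell type at any stage by edgeR or DESeq2, with 2 of 26, 4 of 81 and 10 of 146 tests at an unadjusted p under 0.05 (edgeR). *Peg12* was nearest, with 4.46 and 3.96 CPM in null and 3.13 and 2.58 CPM in WT libraries at E7.5 (log2 fold change 0.64, SE 0.18, edgeR adjusted p = 0.0513). *Ube3a*, of which only neurons silence the paternal copy, was among the steadiest, at 0.06, -0.02 and 0.06. *Peg10*, *Sgce* and *Asb4* share a control region. Of these, *Asb4* passed the adjusted p in Venous endothelium at E9.5 (0.78) and *Peg10* in no type. *Mest*, *Copg2*, *Gnas*, *Plagl1*, *Airn*, *Blcap* and *Cdkn1c* also passed it in no type (edgeR), with *Peg10* included 2 of 48, 12 of 148 and 27 of 287 tests at an unadjusted p under 0.05, and DESeq2 passed 0, 0 and 1 of these. *Dlk1* passed it in Embryo proper mesothelium at E9.5 (0.50). *Rasgrf1* was scarce, below 0.725 CPM in every library or at that value, and was tested in no cell type. *Dio3* and *Rtl1* were tested in at most 3 types at a stage.

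The difference of the genotype effect between stages was tested in the fit over all libraries. From E7.5 to E8.5 and from E8.5 to E9.5, 0 and 0 of the 39 genes passed an adjusted p of 0.05 (edgeR), against 1.41% and 0.0321% of all genes, with 8 and 3 genes at an unadjusted p under 0.05. DESeq2 passed 1, *Ascl2*, and 0. For *Zdbf2* the change was -0.18 (SE 0.16) and 0.11 (SE 0.14), for *Slc38a4* 0.04 (SE 0.31) and 0.05 (SE 0.27), and for *Impact* -0.64 (SE 0.24) and 0.27 (SE 0.20). Without E8.5 null A, *Meg3*, *Mirg* and *H13* passed from E7.5 to E8.5, and *H13* from E8.5 to E9.5. Without E7.5 WT B, *Ascl2* passed from E7.5 to E8.5 (2.53, edgeR adjusted p = 0.0169).

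In WT host cells the set was followed over the stages as a background to these differences, with the caution that whole libraries differ in cell types as well. From E7.5 to E8.5, 9 genes were called (17.7% of all genes, 9.15% higher and 8.55% lower). Higher at E8.5 were *Plagl1*, a zinc finger gene of growth control (3.24), *Peg12* (2.55), *Zim1* (1.87), *Ndn* (1.47) and *Mest* (1.22), and lower were *Ascl2* (-4.26), *Rasgrf1* (-2.97), *Slc22a18* (-2.58) and *Phlda2* (-2.56), all as log2 fold changes (edgeR adjusted p from 2.70e-07 to 0.0174). The 10 ExE ectoderm markers summed to 787 to 1206 CPM in the WT libraries of E7.5, 236 to 336 CPM in those of E8.5 and 88.0 to 215 CPM in those of E9.5, and their part in the lower values was not tested. From E8.5 to E9.5, 3 genes were called (10.0% of all genes), *Phlda2* (-3.36), *Rasgrf1* (-1.58) and *Slc22a18* (-1.09), all lower (3.23% of all genes). The last count was 1 without WT B at E8.5 and without WT A, B or C at E9.5. In WT libraries *Rasgrf1* lay between 0.515 and 0.718 CPM at E7.5. It lay between 0.0482 and 0.0936 CPM at E8.5 and between 0.0126 and 0.0437 CPM at E9.5, close to the limit of 3 counts. Its lower calls thus rest on few counts at the later stages. *Phlda2* ran from 1140 and 1112 CPM at E7.5 over 97.1 and 243 CPM at E8.5 to between 6.93 and 35.0 CPM at E9.5. *Plagl1* ran from 4.42 and 2.12 CPM over 30.7 and 20.8 CPM to between 45.0 and 61.4 CPM.

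**Figure D5:**
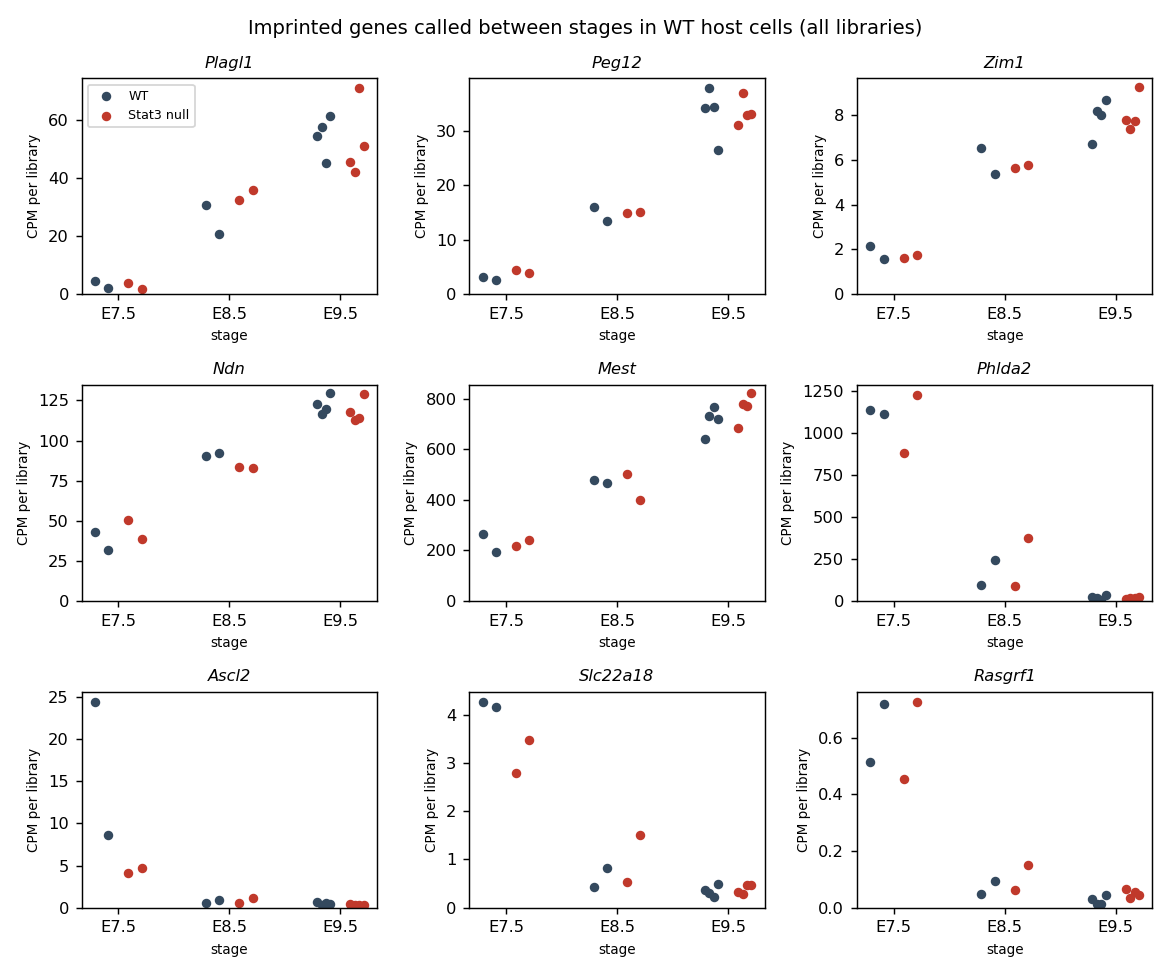
Level in CPM (vertical axis) of the 9 imprinted genes called between stages in WT libraries, in every library (points) by stage (horizontal axis), WT in dark blue and null in red. *Plagl1*, *Peg12*, *Zim1*, *Ndn* and *Mest* were higher and *Phlda2*, *Ascl2*, *Slc22a18* and *Rasgrf1* lower in the WT libraries of E8.5 than in those of E7.5.

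Across the 25 cell types of the E9.5 WT libraries the highest level lay in Mesenchyme for 10 and in Epicardium for 8 of the 39 genes. The share of all genes that were highest in these types was not counted, so that a preference of imprinted genes cannot be read from it. For 32 genes the libraries of the highest type overlapped with those of the next. Levels are given here as mean ± SD of 4 libraries, as a description without a test. *Zdbf2* was highest in Mesenchyme (121 ± 9.05 CPM) and lowest in Erythroid cells (4.68 ± 2.55 CPM), and its second type, Ventral forebrain progenitors (119 ± 20.6 CPM), overlapped with the first. *Slc38a4* was also highest in Mesenchyme (98.5 ± 9.95 CPM), ahead of Epicardium (85.6 ± 3.82 CPM) with overlap, and *Impact* in Mesenchyme (56.9 ± 2.46 CPM), above Migratory neural crest (46.2 ± 5.53 CPM) without overlap. *Nnat* was highest in Frontonasal mesenchyme (1127 ± 141 CPM) and lowest in EMP (45.2 ± 15.1 CPM). Mesenchyme also led for *Dlk1* (1002 ± 47.6 CPM), *Meg3* (1428 ± 99.7 CPM), *Peg3* (2375 ± 196 CPM) and *Ndn* (312 ± 30.7 CPM), of which *Ndn* alone did not overlap with its next type.

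Epicardium, the outer layer of the heart, led without overlap for *Cdkn1c* (2055 ± 291 CPM), *Plagl1* (421 ± 121 CPM) and *Asb4* (287 ± 94.0 CPM), a SOCS box gene that stood 22.6-fold above its median type. Neural types led for *Mest* (Ventral forebrain progenitors, 1571 ± 116 CPM) and *Snrpn* (Dorsal midbrain neurons, 79.8 ± 1.21 CPM), both without overlap. Erythroid cells or EMP, the blood types, held the lowest level of 34 of the 39 genes. The share of all genes that were lowest in these types was not counted, and the UMI total behind CPM includes haemoglobin UMIs. This count therefore does not set imprinted genes apart from other genes.

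Genes beside *Zdbf2*, *Slc38a4* and *Impact* were read in whole libraries as well. Within 500 kb of *Zdbf2* 7 genes were tested, with a median log2 fold change of 0.07, -0.05 and -0.02 at the 3 stages and 0 called by edgeR or DESeq2 (0, 0 and 1 at an unadjusted p under 0.05). Within the same distance of *Slc38a4*, 4 genes had medians of -0.03, -0.14 and -0.04, with 0 called and 0 at an unadjusted p under 0.05. The 3 genes tested beside *Impact* had medians of 0.04, 0.24 and 0.29 and all lay above 0 at E8.5 and E9.5, with 0 called by edgeR or DESeq2 and 1, 0 and 1 at an unadjusted p under 0.05. Beside 6 of the other imprinted genes, *Nnat*, *Blcap*, *Plagl1*, *Mcts2*, *H13* and *Rasgrf1*, 1 neighbour each was called at E7.5. *Nnat* and *Blcap* had the same 13 neighbours, and *Mcts2* and *H13* the same 19, so that fewer than 6 different genes were called. Of all genes 2.62% were called at this stage. The medians over all genes of a chromosome lay between -0.02 and 0.05 at every stage.

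Further imprinted genes were counted from a list of 51 genes that includes *Grb10*, *H19* and *Igf2*, of which 43 were tested in whole libraries. At E7.5 *Nap1l5* was called higher and *Sfmbt2* and *Grb10* lower, at E8.5 *Nap1l5* higher, and at E9.5 *H19*, *Tspan32* and *Grb10* lower. With erythroid and extra-embryonic cell types left out, the log2 fold change of *Sfmbt2* at E7.5 was -0.44 in place of -4.09 (edgeR adjusted p = 0.694) and that of *Tspan32* at E9.5 -0.98 in place of -1.38 (edgeR adjusted p = 0.161), beside the lower ExE ectoderm markers at E7.5 and erythroid markers at E9.5, while that of *Nap1l5* at E7.5 was 1.22 in place of 1.45. No cell type was called for *Sfmbt2* at E7.5 or *Tspan32* at E9.5, of 3 and 1 tested (edgeR). By cell type 16 of 159, 1 of 422 and 45 of 847 tests were called at the 3 stages, against 0.186%, 0.0609% and 0.120% of all tests. The lower calls were all of *Grb10* (7, 0 and 30) and *H19* (5, 1 and 9), and the higher ones of *Igf2* (4, 0 and 4) and, at E9.5, *Nap1l5* (2). Of 21 genes that set or keep imprints, such as DNA methyltransferases and ZFP57, *Dnmt3l* and *Zfp42* were called lower at E7.5 in whole libraries and 0 at E8.5 and E9.5 (edgeR and DESeq2, with 2 and 0 at an unadjusted p under 0.05). Of the ExE ectoderm markers given above 6 of 10 were also called lower at E7.5, and with erythroid and extra-embryonic cell types left out the log2 fold change was -1.98 for *Dnmt3l* (edgeR adjusted p = 0.0473) and 0.20 for *Zfp42* (edgeR adjusted p = 0.982), against -4.74 and -3.64 over all cells. Neither gene was tested in any cell type. By cell type 0 of 125, 0 of 352 and 0 of 661 tests of these genes were called by edgeR and by DESeq2, and 4, 5 and 29 had an unadjusted p under 0.05 (edgeR).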

How the data were processed

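Droplet libraries (10x Genomics, 3′ tags) were mapped to mm10 with Cell Ranger by the authors, per the labels, and deposited as unnormalized UMI counts, with a table of cells that gives stage, sort gate, filter, doublet call, cell type and, computed by the authors, the percent of mitochondrial UMIs, whose median per library lay between 0.94 and 1.81. Of 192657 barcodes in that table, the matrix holds the 41832 cells, of 10003 to 99964 UMIs, that the authors kept. Doublet calls (3395 cells) and WT-sorted singlets with a tdTomato UMI (596) were left out. The range of depth over libraries is given in the report. The number of columns of per-sample values left unmatched was 0.

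The labels give stage and genotype, and number the replicates, but these numbers do not appear in the cells' library names, so that libraries were tied to groups only. Samples of a group are taken as replicates, also at E7.5, where the study classified embryos by size. The labels give 1 embryo for each E9.5 sample and the study's account 2 embryos at that stage, so that p-values may measure the spread between libraries of the same embryo.

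Counts were summed per library, and per library and cell type where both genotypes had at least 2 libraries of over 15 cells. After the study's filter, 8178 of 29453 genes did not enter the tests (tdTomato, *Xist*, *Tsix*, Gm and Rik gene models, and genes of the Y chromosome, haemoglobins, ribosomal proteins and mitochondria), but imprinted genes were kept. The quasi-likelihood test of edgeR 4.0.16 (R 4.3.3, filterByExpr, TMM, robust) was used within each cell type, and for whole libraries in 1 fit over 16 libraries and 6 groups with 15567 genes, with Benjamini-Hochberg adjustment. Calls needed an adjusted p under 0.05 and an absolute log2 fold change over 1. SE is the log2 fold change over the root of F. CPM is per 10⁶ UMIs of the library or of the cell type in it, and levels averaged over cell types weight types with more than 15 cells in every library equally. DESeq2 1.42.0 and limma 3.58.1 were alternatives. edgeR was tested on simulated counts first. Genes named with every library were those called in at least 5 cell types at a stage or in whole libraries, and others are named as chosen after their values were seen. The genes, lists and tests were chosen with earlier results of these data known. Gene positions are from GENCODE (GRCm38) and promoters from RefSeq (GRCm38.p6).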

Additional observations from a re-analysis of the deposited data

Results flagged for a closer look

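In groups of 4 libraries, all at E9.5, a value was singled out where its gap to the nearest other library was large against the range of the group (Dixon's 95% limit). Chance gives about 1 such value in 20 groups, and 7 were found in 78 groups. *Zdbf2* was at 131 CPM in null C, against 147 to 149 CPM in the other null libraries, and still lay above all WT libraries. *Impact* was at 32.4 CPM in WT A, against 37.0 to 37.8 CPM in the other WT libraries. *Sgce*, the gene of epsilon-sarcoglycan, was at 26.3 CPM in null A (29.3 to 29.8 CPM in the others) and at 33.2 CPM in WT D (26.4 to 26.9 CPM in the others). *Asb4* was at 33.4 CPM in null A, against 33.95 to 33.99 CPM in the others, a difference of little size. *Dio3* was at 2.27 CPM in null D (1.38 to 1.39 CPM in the others), and *Rtl1* at 2.09 CPM in WT D (1.46 to 1.56 CPM in the others), both scarce.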

How the results depend on the processing

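By the study's account each embryo pool gave a null and a WT sample, and the study's tests included the pool. No paired analysis was possible here because the library names of the cells carry no replicate number or embryo pool. All p-values above therefore ignore this pairing. With no fold change limit the calls by cell type were 6, 15 and 77 at the 3 stages in order, and those in whole libraries 6, 1 and 3. With more than 50 cells per library they were 0 at E8.5 and 13 at E9.5, with no cell type left at E7.5, since fewer types were tested. DESeq2 gave 5 calls by cell type at E8.5, 4 of them shared with edgeR, and 1 gene whose genotype effect differed from E7.5 to E8.5. With erythroid and extra-embryonic types left out, or levels averaged over cell types (limma-trend), 0 genes were called in whole libraries at E7.5 (edgeR 3), and without null-sorted cells that lacked a tdTomato UMI 1 at E8.5.

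Leaving out 1 library gave 3 to 9, 5 to 43 and 23 to 35 calls by cell type, with 43 reached without E8.5 null A, and 1 to 2, 0 to 1 and 1 to 1 calls in whole libraries. Where it left 1 library in a group, that library was assumed to vary like the others. Genotype effects that differed numbered 0 to 3 and 0 to 1, the latter reached without E8.5 null A, and WT genes called between stages 9 to 12 and 1 to 4. *Ascl2* at E8.5 (0.12) was -0.040 with limma-trend, and ran from -0.33 to 0.61 when 1 library was left out, with -0.11 without WT A. *Dlk1* ran from -2.38 to 0.15 and *Meg3* from -0.0543 to 0.81, both turned by leaving out null B. For the log2 fold changes of single genes, 134 alternatives kept direction and side of the limits, 8 lost the limits, 1 gained them and 1 turned, and with 1 library left out the numbers were 84, 6, 2 and 4. The causes were not tested. The scale factors moved the median of all genes by less than 0.1.

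Depth limits scarce genes, *Rasgrf1*, *Dio3*, *Rtl1*, *Magel2* and *Slc22a18*, to few cell types. The groups of 2 libraries at E7.5 and E8.5 leave a gene that differs between null libraries, as *Dlk1* does, far from the threshold. In addition, cell types with few cells differ between libraries in which library enters the test.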

Other observations

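Among further values, *Phlda2* ran from 88.6 to 372 CPM in E8.5 null and from 6.93 to 35.0 CPM in E9.5 WT libraries, whereas the E7.5 WT libraries held 1140 and 1112 CPM. *Cdkn1c*, a maternally expressed gene beside it, reached 429 to 632 CPM in null and 425 to 546 CPM in WT libraries at E9.5 (log2 fold change 0.15, SE 0.14, edgeR adjusted p = 0.902). *Airn*, the non-coding RNA that silences *Igf2r* on the paternal allele, reached 9.35 and 4.40 CPM in WT libraries at E7.5 and 11.3 to 15.8 CPM in WT libraries of the later stages.

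Erythroid markers moved with genotype at E9.5. The 10 markers summed to 270 to 712 CPM in null and 5774 to 17983 CPM in WT libraries, 5 of 5 tested were called lower, and none was at 0 in all null libraries. With erythroid and extra-embryonic cell types left out, the log2 fold change of *Zdbf2* at E9.5 was 1.04, that of *Slc38a4* 0.91 and that of *Impact* 0.61.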
